A study of Homo sapiens with 4 samples.

Results

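The HOX gene clusters were described in SKBR3 cells by their accessible chromatin. Members were 38 HOX genes taken by gene name from GENCODE release 44, with 10 genes in the HOXA cluster, 10 in HOXB, 9 in HOXC and 9 in HOXD. A site was a stretch covered by overlapping peaks of the 4 lists, and a site was taken when it lay within 20 kb of any annotated start site of a member. This gave 167 sites of 307691, or 0.0543% of all sites. The outermost sites inside the distance lay 14.0 to 19.2 kb from a start and ranked between 3.28 and 33.1 in their lists, and the first sites outside it lay 21.4 to 36.4 kb away and ranked between 6.15 and 73.8, as rank percentiles defined with the peak values. The rule itself used gene names and distances and no measured value, but the gene set was proposed with earlier results of these data known. SKBR3 is a cell line derived from a HER2-positive breast tumour. Chromatin was assayed by ATAC-seq, which uses Tn5, a transposase that cuts and tags open DNA. Both groups were starved for 8 h. The untreated group had 2 libraries, and the TWEAK group had 2, from cells that received this cytokine (10 ng/ml, 48 h, replenished after 24 h). The study asked whether TWEAK, the ligand of the receptor Fn14, alters the chromatin of breast cancer lines.

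HOX genes encode homeodomain transcription factors that give cells their position along the body axis. They sit in 4 clusters in which gene order follows the order of expression from head to tail, and genes of the same number in different clusters are paralogues. Polycomb proteins keep HOX genes closed and Trithorax proteins keep them open, so which genes of a cluster are accessible is a stable mark of a cell's origin. HOX proteins bind DNA together with PBX and MEIS homeodomain cofactors.

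The lists used held 195315 to 228644 peaks, each 501 bp wide, on chromosomes 1 to 22 and X. Read depth was not measured here. The background pileup recovered from the peak values was 3.59 and 2.24 in untreated replicates 1 and 2. In TWEAK replicates 1 and 2 it was 2.63 and 1.85. In the same order the lists held 208329, 228644, 218335 and 195315 peaks. Peak values are −log10 p-values that scale with depth, so a peak is given here by its rank percentile within its own list, where 100 is the strongest. Of 10 luminal HER2-positive marker genes, 9 had a site in all 4 libraries at the start, and CDH1, the E-cadherin gene, had no peak there in any library. Of 10 markers of other cell types, COL1A1 alone had such a site, at percentiles of 84.4 to 86.9. The number of replicates is small, and the labels name no batch. The methods say of cell line experiments in general that repeats were made on separate days, and the day of each library is not given in the sources used here.

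The strongest site of each cluster was taken by its lowest percentile over the 4 libraries, and those of HOXA and HOXD are printed here to place the open chromatin on hg38. Each line gives the central 201 bases of the site on the plus strand, and capitals mark matches to the motifs searched, which were CTCF, AP-1, NF-kB, HOX-PBX and the retinoic acid response element. The HOXC site began upstream of HOXC13, the HOXA site lay in an intron of HOXA3 within 1 kb of an annotated start of HOXA6, the HOXD site lay at the HOXD10 start, and the HOXB site lay in an intron shared by HOXB3 and HOXB6. Of the sites printed, the HOXD10 site held a match, to CTCF, and the HOXA3 and HOXA6 site held none.
HOXA3 and HOXA6 site, chr7:27150861-27151061: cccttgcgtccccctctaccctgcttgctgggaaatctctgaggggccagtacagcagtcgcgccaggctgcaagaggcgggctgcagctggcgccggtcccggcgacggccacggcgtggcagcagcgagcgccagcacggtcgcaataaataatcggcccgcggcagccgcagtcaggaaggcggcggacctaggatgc
HOXD10 start site, chr2:176116564-176116764: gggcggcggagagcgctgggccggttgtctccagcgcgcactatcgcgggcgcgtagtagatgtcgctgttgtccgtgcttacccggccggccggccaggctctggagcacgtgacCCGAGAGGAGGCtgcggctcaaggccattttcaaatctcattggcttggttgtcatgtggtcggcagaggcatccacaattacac

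The HOXC13 site ranked at 96.2 and 95.0 in the untreated and 95.7 and 92.9 in the TWEAK libraries. The HOXA3 and HOXA6 site ranked at 91.5, 91.5, 91.1 and 90.0 in the same order. The HOXD10 site ranked at 87.1, 86.6, 87.8 and 84.7. The strongest HOXB site was lower than these 3 in every library, at 71.8, 75.8, 68.2 and 72.0. Another HOXB site, beyond HOXB1, ranked at 79.9, 86.2, 76.2 and 66.8 and was passed over for its lowest percentile.

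The clusters differed strongly in how much of them was open. HOXA held 75 sites, HOXC 58, HOXD 22 and HOXB 12. HOXB has the longest window, 183 kb in 2 pieces on chromosome 17, against 137 kb on chromosome 7 for HOXA, 155 kb on chromosome 12 for HOXC and 136 kb on chromosome 2 for HOXD. Peaks were therefore also counted per 10 kb of window in each library. HOXA held 44 and 52 peaks in the untreated and 57 and 37 in the TWEAK libraries, which is 3.46 ± 0.641 per 10 kb (SD, n = 4 libraries of both groups). HOXC held 41, 41, 44 and 39 peaks, or 2.66 ± 0.133 per 10 kb. For HOXD the counts were 15, 19, 17 and 17, or 1.25 ± 0.120 per 10 kb. HOXB was the sparsest cluster in every library, with 10, 9, 10 and 7 peaks and 0.493 ± 0.0774 per 10 kb.

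Each of the 6 differences between clusters had 1 sign in 4 of 4 libraries. HOXA exceeded HOXB by 2.31 to 3.60 peaks per 10 kb and HOXC exceeded HOXB by 2.10 to 2.29. HOXD exceeded HOXB by 0.556 to 0.905 peaks per 10 kb. In an exact two-sided sign-flip permutation test over the 4 libraries, p was 0.13 for each pair and 0.13 after adjustment over the 6 pairs, the smallest value this design can give. All 4 lists come from 1 cell line.

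The lead of HOXA over HOXC held for all peaks and not for strong ones. HOXC minus HOXA ran from −1.31 to −0.177 peaks per 10 kb over the libraries when all peaks were counted. Of peaks with a deposited value of at least 5, HOXA kept 25, 26, 29 and 23 in the 4 libraries and HOXC kept 35, 31, 38 and 33. HOXC was then the denser cluster in 4 of 4 libraries, by a mean of 0.336 peaks per 10 kb (exact sign-flip permutation test, adjusted p = 0.13). Above the 50th percentile of its list HOXC had 1.65 ± 0.0833 and HOXA 1.22 ± 0.0916 peaks per 10 kb (SD, n = 4). The median percentile of the peaks ran from 25.5 to 31.2 over the libraries in HOXA, from 60.2 to 67.2 in HOXC, from 49.7 to 63.2 in HOXB and from 40.5 to 54.8 in HOXD. The few HOXB peaks thus ranked above those of HOXA in every library, by 24.2 to 32.0 percentile points.

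**Figure D1:**
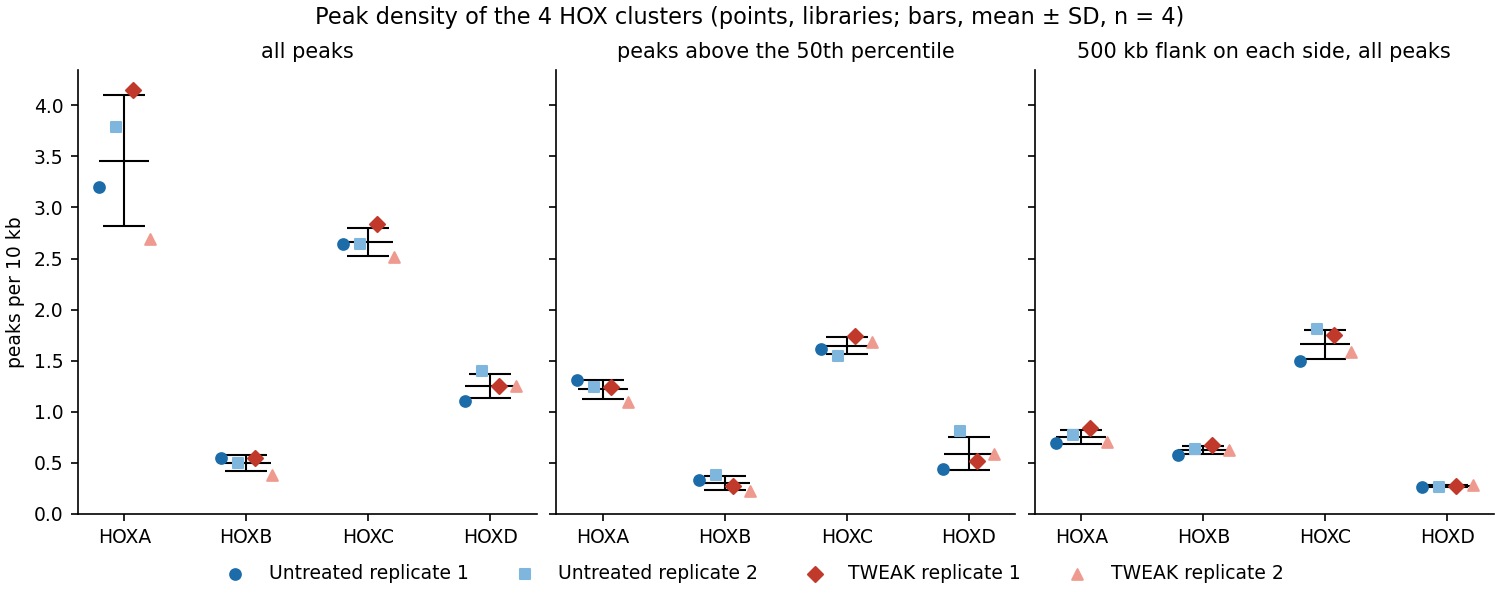
Peaks per 10 kb (vertical axis, linear) in the windows of the 4 clusters for all peaks, for peaks above the 50th percentile of their list, and in the 500 kb on each side of each window. Points are libraries and bars are the mean ± SD of 4 libraries. HOXA is highest among all peaks and HOXC among strong peaks, and HOXB lies below its own flanks.

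The neighbourhood of each cluster was counted in the same lists, over 500 kb on each side. The HOXA window was 3.85 to 4.94 times as dense as its flanks and HOXD 4.24 to 5.38 times. The HOXC flanks were themselves rich, with a mean of 1.66 peaks per 10 kb, and the window was 1.46 to 1.76 times as dense. HOXB was the only cluster poorer than its flanks, at 0.618 to 0.960 times their density in the 4 libraries. The whole chromosomes 1 to 22 and X carried 0.644 to 0.754 peaks per 10 kb, so HOXB lay below that in every library as well.

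Stretches without a peak in any list were longest in HOXD and HOXB. The longest was 47.4 kb in HOXD and held the starts of HOXD3 and HOXD4. In HOXB, a stretch of 41.5 kb held the starts of HOXB2 and HOXB4, 20.6 kb held that of HOXB1 and 20.8 kb that of HOXB13. The longest in HOXC was 14.8 kb around the start of HOXC4, and the longest between 2 sites of HOXA was 5.42 kb with no member start. A further 13.1 kb without a peak lay beyond HOXA2 and was cut by the edge of the window. Peak lists cannot tell weak signal below the caller's threshold from none.

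**Figure D2:**
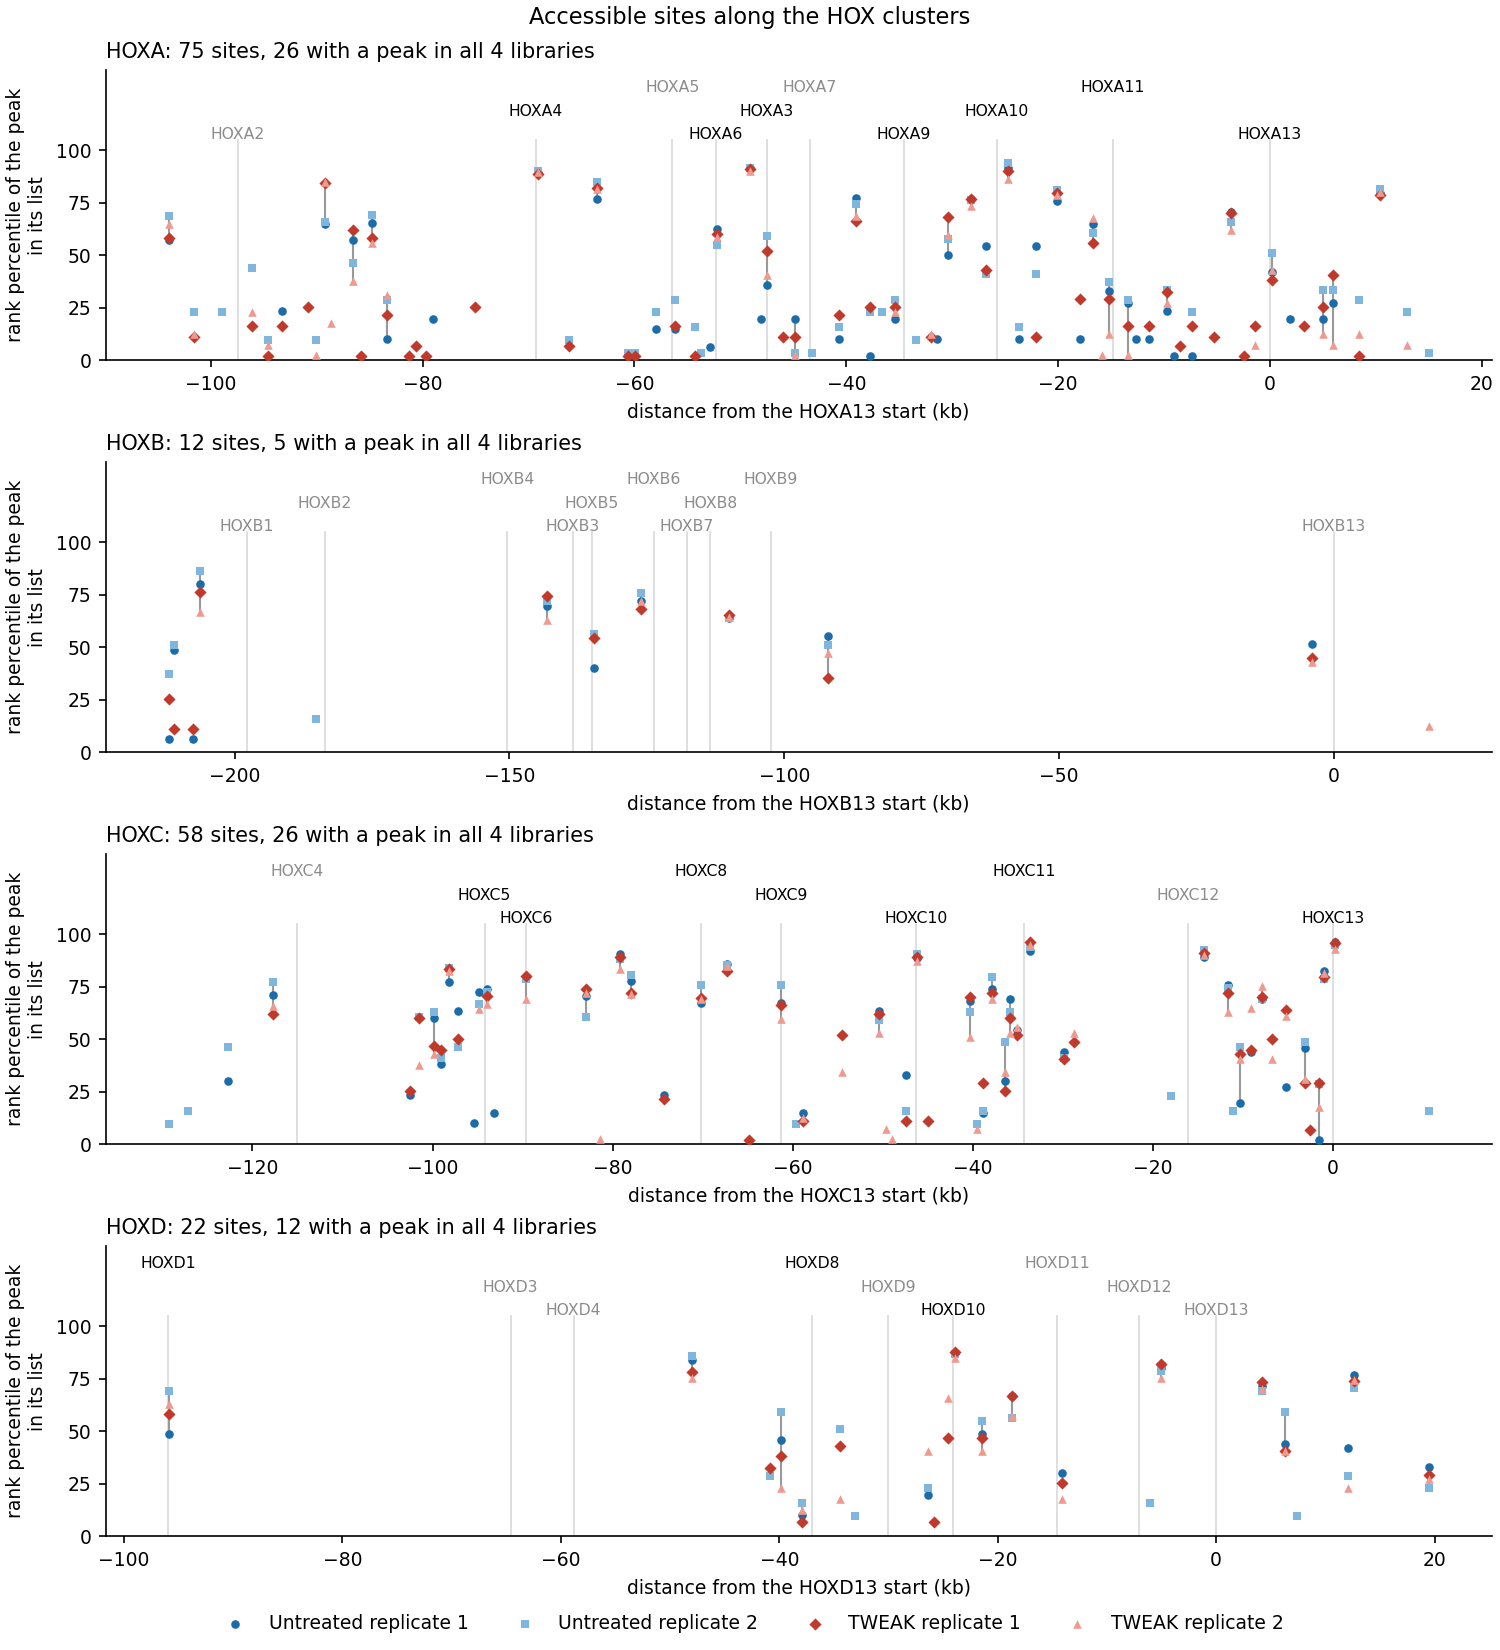
Sites along each cluster, by distance in kb from the start of its group 13 gene (positive away from the rest of the cluster) and rank percentile of the peak in each library. Grey lines join sites present in all 4 libraries, and gene names mark canonical starts, black where a site in all 4 libraries lies within 1 kb. HOXA is filled with many low points, whereas HOXB and the left of HOXD are almost empty.

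At the gene level, a canonical start was the start of the MANE Select transcript, or else the Ensembl canonical one. Of the 38 HOX genes, 17 had a site in all 4 libraries within 1 kb of it, or 44.7%. Of 19970 protein-coding genes, 70.0% had one. The share was 7 of 10 in HOXA, 0 of 10 in HOXB, 7 of 9 in HOXC and 3 of 9 in HOXD. By paralogue group it was 2 of 7 genes in groups 1 to 3, 6 of 15 in groups 4 to 8 and 9 of 16 in groups 9 to 13. No peak lay there in any list for 15 genes, which were 9 HOXB genes, HOXC4, HOXC12, HOXD3, HOXD4, HOXD9 and HOXD13.

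In HOXA every start had a peak in at least 1 library, but strength varied widely between neighbours. HOXA10 and HOXA4 stood far above the rest. HOXA10, a regulator of uterine and blood development, ranked at 91.5, 93.9, 89.9 and 86.4 in untreated 1 and 2 and TWEAK 1 and 2. The start of HOXA4 ranked at 89.2, 90.2, 88.8 and 89.7. HOXA6 came next at 54.8 to 62.6, and HOXA3 spanned 35.6 to 59.3 and HOXA13, which patterns limbs and the urogenital tract, 38.1 to 51.0. HOXA6 lay above HOXA13 in every library, and the range of HOXA3 overlapped both. HOXA11 at 12.3 to 37.4 and HOXA9, known from leukaemia, at 19.8 to 28.8 were present in all 4 libraries but in the lower part of each list. HOXA2 and HOXA5 had a peak in 3 libraries, and HOXA7 had 1 peak, at 3.28 in untreated replicate 2. At other annotated starts, HOXA7 had a site in all 4 libraries at 2.52 to 19.8, and HOXA9 had one at 50.3 to 68.2 and another that was the HOXA10 site. Counted at any annotated start, 19 of the 38 genes had a site in all 4 libraries, with HOXA7 and HOXC4 added.

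In HOXB the starts of HOXB1, HOXB2, HOXB3, HOXB4, HOXB6, HOXB7, HOXB8, HOXB9 and HOXB13 had no peak. HOXB5 had one at 40.2 and 56.4 in the untreated libraries and 54.6 in TWEAK replicate 1. It had none in TWEAK replicate 2, the list with the fewest peaks. The 5 HOXB sites present in all 4 libraries all lay away from canonical starts. They were 1 site beyond HOXB1 at 66.8 to 86.2, 1 in HOXB3 at 63.2 to 74.5, the HOXB3 and HOXB6 intron site, 1 between the starts of HOXB8 and HOXB9 at 64.0 to 65.4 and 1 beyond HOXB9 at 35.5 to 55.3. The HOXB starts had the lowest GC content and the fewest CpG-rich starts of the 4 clusters. Within 250 bases of them the median GC content was 51.8%, against 58.8% in HOXA, 55.9% in HOXC, 62.9% in HOXD and 64.7% over all protein-coding genes. Of the HOXB starts, 4 of 10 were CpG-rich (GC over 50% and observed over expected CpG over 0.6), against 9 of 10 in HOXA, 7 of 9 in HOXC, 9 of 9 in HOXD and 67.6% of all protein-coding genes. HOXB4 and HOXB9 were CpG-rich starts without a peak, as were HOXB7 and HOXB13. All 9 HOXD starts were CpG-rich, and 4 of them had no peak. The part of base composition in these counts was not tested.

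HOXC was the cluster whose starts ranked highest. By their lowest percentile over the 4 libraries, HOXC13, needed for hair and nail formation, and HOXC11 came first of the 38 members. The HOXC11 start ranked at 92.0, 93.9, 96.0 and 94.7 and overlapped the range of HOXC13, 92.9 to 96.2, and that of HOXA10. Within HOXC, HOXC10 followed at 88.6, 90.5, 89.2 and 87.1. HOXC6 at 69.2 to 80.3, HOXC5 at 66.8 to 73.8, HOXC8 at 67.2 to 75.8 and HOXC9 at 59.8 to 75.8 overlapped each other. HOXC4 and HOXC12 had no peak within 1 kb of the canonical start, although HOXC4 had 4 sites in all 4 libraries whose nearest edge lay within 1 kb of another annotated start. A site at 89.3 to 92.6 was centred at −1692 bp from the HOXC12 start (negative is upstream), outside that distance.

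In HOXD the start of HOXD10 was the strongest, at 84.7 to 87.8. HOXD1 ranked at 48.9, 69.3, 58.2 and 63.2. HOXD8 was present in all 4 libraries at 6.62 to 16.0. HOXD11 had a peak in 3 libraries at 17.9 to 30.3 and HOXD12 in 1 at 16.0. The group 10 paralogues were therefore open together, with HOXA10, HOXC10 and HOXD10 all at 84.7 or higher in every library.

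**Figure D3:**
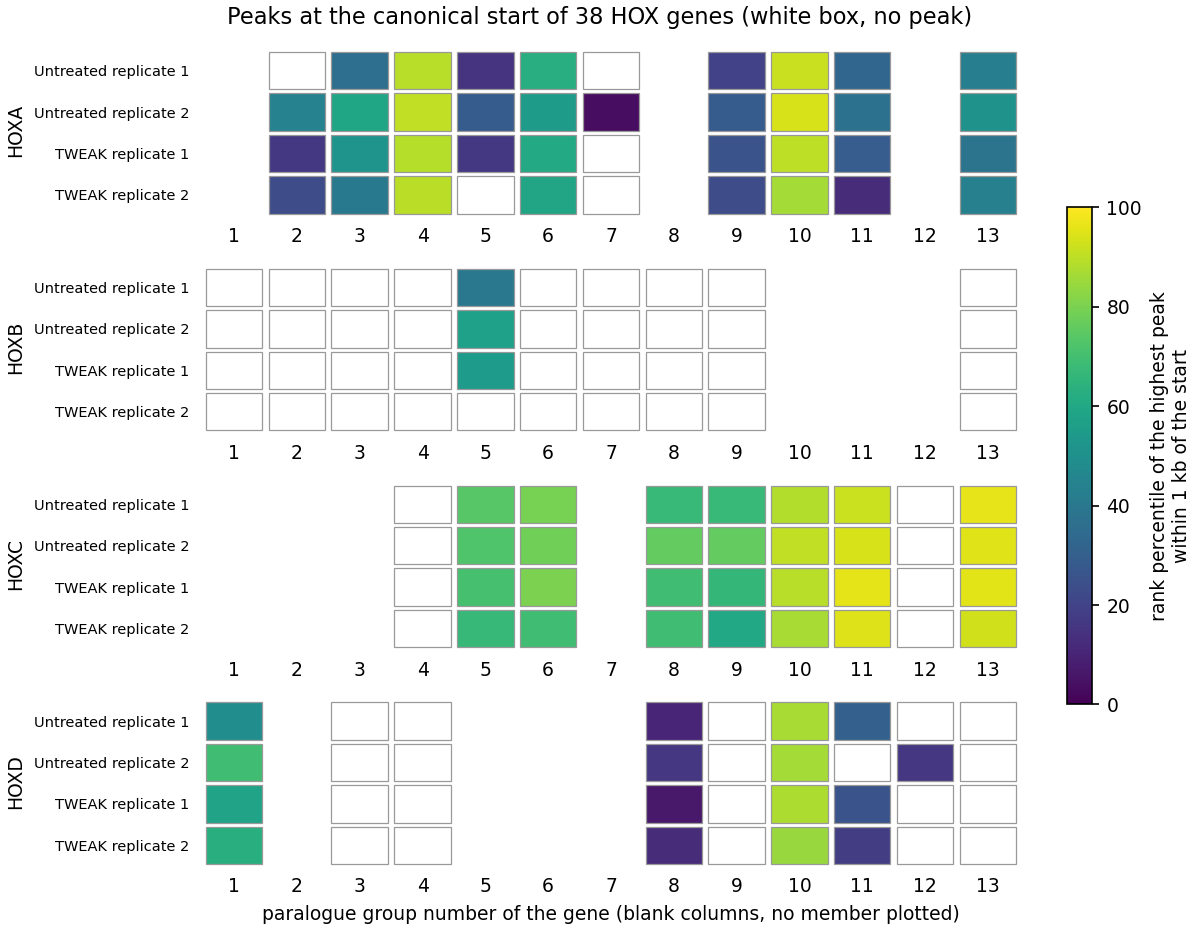
Rank percentile (colour) of the highest peak within 1 kb of the canonical start of each of the 38 genes, in columns by paralogue group and in rows by library, with white boxes for no peak. The group 10 genes of HOXA, HOXC and HOXD are bright in all 4 libraries, and the HOXB rows are white except for HOXB5.

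Noncoding genes of the clusters often shared a site with a coding neighbour. Of 21 listed, 10 had a site in all 4 libraries at the start. By the highest peak within 1 kb of its start, HOTAIR, a long noncoding RNA of the HOXC cluster, ranked at 68.9, 63.0, 60.2 and 56.0. The site behind the first values ranked at 52.9 in TWEAK replicate 2, where 56.0 came from a neighbouring site. HOTTIP, at the HOXA13 end, ranked at 38.1 to 51.0 through the peak it shares with HOXA13, and HOTAIRM1 at the other end ranked at 57.5 to 68.5. HOXA-AS3 shared the HOXA4 site, HOXC-AS3 the HOXC10 site and HAGLR the HOXD1 site. None of HOXB-AS1, HOXB-AS2 and HOXB-AS3 had a site in all 4 libraries.

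The microRNA genes differed within a seed family. miR-196 has a gene in each of HOXA, HOXB and HOXC and is known to target HOX messages, and its 5p forms share 1 seed. The sequences are RefSeq's, on GRCh38.p14, with the seed (bases 2 to 8) in capitals.
hsa-miR-196b-5p, MIR196B in HOXA: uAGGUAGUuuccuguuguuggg
hsa-miR-196a-5p, MIR196A1 in HOXB and MIR196A2 in HOXC: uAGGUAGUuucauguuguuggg
hsa-miR-10a-5p, MIR10A in HOXB: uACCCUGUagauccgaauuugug
hsa-miR-615-3p, MIR615 in HOXC: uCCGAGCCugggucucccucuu

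MIR196B had a site at its start in all 4 libraries, at 50.3 and 57.9 in the untreated and 68.2 and 59.8 in the TWEAK libraries. MIR615, inside HOXC5, had one within 1 kb at 66.8 to 73.8, which was the HOXC5 start site. The site over the MIR615 start itself had a peak in untreated replicate 1 only, at 10.3. MIR196A1, MIR196A2, MIR10A and MIR10B had no peak within 1 kb of the annotated start in any list. The annotated start of a microRNA is that of its hairpin, and the start of its longer primary transcript can lie elsewhere.

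The HOX sites were rich in CpG. Of the 167 sites, 59 were CpG-rich over the 501 bp of their highest peak, or 35.3%, against 6.96% of all sites. HOXA had 29 of 75, HOXB 4 of 12, HOXC 15 of 58 and HOXD 11 of 22. Median GC content was 54.5% against 47.3% over all sites. Sites were taken for their distance to a start, and the part of that choice in these shares was not tested.

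Motifs were searched on both strands in a window reaching 100 bp to each side of a site's centre, and were spelled CCNNNAGGNGGC for CTCF, TGANTCA for AP-1, TGATNNAT for HOX-PBX and AGNTCANNNNNAGNTCA for the retinoic acid response element, and NF-kB by its usual 10-base consensus. CTCF, the factor that anchors chromatin loops, had a match in 7 HOX sites (4.19%) and in 3.44% of all sites. The matches lay in HOXD (3), HOXB (2) and HOXC (2), and none was found in the 75 HOXA sites. AP-1 had a match in 5 HOX sites (2.99%) against 12.3% of all sites. HOX-PBX matches were found in 6 sites (3.59%) against 7.41%. Of those 6, 5 were HOXA sites present in all 4 libraries, 1 of them the HOXA4 start, which is 19.2% of the 26 such HOXA sites against 6.78% of all sites present in all 4 libraries. No retinoic acid response element was matched in a HOX site, against 0.0917% of all sites. These are matches of letters in windows of unequal base composition, and none was tested.

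The next question was whether TWEAK altered the clusters. The total number of peaks near HOX starts was 110 and 121 in the untreated and 128 and 100 in the TWEAK libraries, so the groups overlapped. The mean difference was −1.50 peaks (exact permutation test, two-sided, p = 1). With 2 against 2 libraries no p under 0.33 can be reached. TWEAK replicate 2 had both the fewest peaks near HOX starts and the fewest in all. Of the sites missing from 1 library only, 14 lacked TWEAK replicate 2 and 15 lacked 1 of the other 3, and the share of all HOX sites that lacked only this library was 8.38%, against 4.77% of all sites.

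Few HOX sites had peaks in 1 treatment only. A peak in all 4 libraries was found at 69 of the 167 HOX sites, or 41.3%, against 42.8% of all sites. Peaks in both TWEAK lists but neither untreated one were found at 6 HOX sites, or 3.59%, against 3.60% of all sites. The opposite pattern held for 3 sites, or 1.80%, against 3.79%. The first 6 were 3 in HOXC, 2 in HOXA and 1 in HOXD, and the other 3 were 2 in HOXA and 1 in HOXC. HOXB had none of either kind.

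Of the 6 sites with a peak in both TWEAK libraries only, the 3 HOXC sites each held a match to the NF-kB consensus, shown here in capitals because NF-kB is the pathway through which TWEAK is known to signal. The first lay in the HOTAIR gene, the second in an intron of HOXC6 and the third in an untranslated exon of HOXC13, for which 30 bases are given.
HOTAIR site, chr12:53967463-53967663: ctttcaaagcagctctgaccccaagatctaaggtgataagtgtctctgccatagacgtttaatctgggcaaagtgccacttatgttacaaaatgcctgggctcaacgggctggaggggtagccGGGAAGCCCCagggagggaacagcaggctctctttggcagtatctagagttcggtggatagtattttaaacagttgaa
HOXC6 intron site, chr12:53993280-53993480: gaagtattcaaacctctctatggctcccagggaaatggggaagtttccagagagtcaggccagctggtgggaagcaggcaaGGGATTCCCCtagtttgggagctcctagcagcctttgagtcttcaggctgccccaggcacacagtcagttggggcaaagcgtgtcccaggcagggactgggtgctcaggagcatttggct
HOXC13 exon site, chr12:53945603-53945632: aagcagggttGGGGAATCCCgaatggcccc

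The HOTAIR site ranked at 48.6 and 52.9 in TWEAK replicates 1 and 2, and the nearest untreated peak lay 615 bp away. The HOXC6 intron site ranked at 51.8 and 34.6, with the nearest untreated peak 3558 bp away. The HOXC13 exon site ranked at 50.3 and 40.5, with one 552 bp away. All 3 thus ranked between 34.6 and 52.9.

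An NF-kB match was found in 3 of the 6 HOX sites with this pattern, in 20.1% of the 11080 sites with this pattern across the genome and in 6.21% of all sites. None of the 3 HOX sites with peaks in both untreated libraries only held one, against 4.28% of all sites of that kind. The share over all 167 HOX sites was 5.99%. With 6 sites the share is no more than a count, and binding of NF-kB was not measured.

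The other 3 sites with peaks in both TWEAK libraries only lay in HOXD and HOXA. The HOXD site, 521 bp inside HOXD10, ranked at 46.8 and 66.0, but an untreated peak lay 121 bp away, and it held an AP-1 match. The HOXA sites lay in introns of HOXA9 and HOXA13 and ranked at 11.2 and 12.3 and at 16.4 and 7.37. In that order, the nearest untreated peaks lay 110 and 1096 bp away. Of the 3 sites with peaks in both untreated libraries only, the HOXC site, 7713 bp downstream of the HOXC4 start, ranked at 30.3 and 46.5. Those in HOXA ranked at 15.1 and 22.8 near HOXA5 and at 10.3 and 16.0 in HOXA10.

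Among the 69 sites present in all 4 libraries, strength was close between the treatments. Their mean percentile was 61.4 and 64.5 in the untreated and 61.5 and 58.0 in the TWEAK libraries, so TWEAK replicate 1 lay between the untreated libraries. The difference was −3.16 percentile points (exact permutation test, p = 0.667). Over all 131751 sites present in all 4 libraries the means were 64.0, 66.5, 64.5 and 60.8, and TWEAK replicate 2 was lowest there too. By cluster the difference was −2.04 points in HOXA, −5.60 in HOXB, −3.37 in HOXC and −4.14 in HOXD. The groups did not overlap in HOXB, HOXC and HOXD, where the exact permutation p was 0.33.

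A percentile higher in both TWEAK than in both untreated libraries was found at 6 of the 69 sites, or 8.70%, against 15.8% of all such sites. The reverse held for 22 sites, or 31.9%, against 35.4%. On the scale of pileup over background, 22 sites were higher in both TWEAK libraries and 6 were lower, against 34.8% and 12.2% of all such sites. The split between higher and lower thus turned with the scale, in the HOX clusters as over all sites.

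The HOXA3 intron site had the widest separation between the groups of the 69, in either direction. It lay in an intron of the long HOXA3 transcript and inside HOXA-AS2, at −8212 bp from the HOXA2 start (negative is upstream), and its central bases held an NF-kB match near 1 end.
HOXA3 intron site, chr7:27110795-27110995: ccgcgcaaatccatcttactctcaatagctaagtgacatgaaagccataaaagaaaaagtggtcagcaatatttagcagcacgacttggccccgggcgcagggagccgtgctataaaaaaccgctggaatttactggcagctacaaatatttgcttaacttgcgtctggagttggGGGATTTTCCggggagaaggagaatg

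The HOXA3 intron site ranked at 64.7 and 66.0 in the untreated and at 84.3 and 84.7 in the TWEAK libraries. The groups were separated by 18.4 points, while replicates of a group lay within 1.23 points of each other. The mean difference was 19.2 points, and as log2 of pileup over background it was 1.53. The site was picked for this separation, so its values are a description with no test. The next largest separations with TWEAK higher were 1.96 points at the site shared by HOXA9, HOXA10-AS and MIR196B and 1.62 points in an intron of HOXC6, and neither of these sites held an NF-kB match. Of the 69 sites, 2 held one, or 2.90%, against 5.96% of all sites present in all 4 libraries. The one besides the HOXA3 intron site lay at −12633 bp from the HOXD13 start. It ranked at 70.7 to 76.9 over the 4 libraries and was not higher in both TWEAK libraries.

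In the opposite direction, gaps between the groups were smaller than at the HOXA3 intron site. The largest mean difference of the 69 was however downward, −21.9 points at a site in HOXD8, named after its values were seen. It ranked at 45.8 and 59.3 in the untreated and 38.1 and 23.0 in the TWEAK libraries, so its replicates lay far apart and the gap was 7.61 points. Its pileup over background was 6.69 and 10.3 and then 6.46 and 5.96. A site in HOXC13 ranked at 45.8 and 48.9 in the untreated and 29.2 and 31.2 in the TWEAK libraries, a separation of 14.6 points. Its pileup over background was 6.69 and 7.60 and then 5.32 and 7.04, so the groups overlapped on that scale. A site near an annotated HOXC4 start ranked at 60.2 and 63.0 and then at 46.8 and 43.0, separated by 13.4 points. Between HOXA11 and HOXA13 a site in HOXA11-AS ranked at 27.2 and 28.8 and then at 16.4 and 2.52, separated by 10.8 points. The HOXC4 and HOXA11-AS sites were also lower in both TWEAK libraries in pileup over background, at 10.0 and 11.6 against 7.98 and 9.20 near HOXC4 and at 4.46 and 4.92 against 4.18 and 3.79 in HOXA11-AS. The strong starts were high in both groups, and those of HOXC13, HOXC11, HOXA4, HOXA10, HOXC10 and HOXD10 ranked at 84.7 or higher in all 4 libraries. Among these 6, the HOXC11 start was higher in both TWEAK libraries, by a separation of 0.820 points, and its pileup over background was 47.7 and 61.7 in the untreated and 76.0 and 74.7 in the TWEAK libraries.

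**Figure D4:**
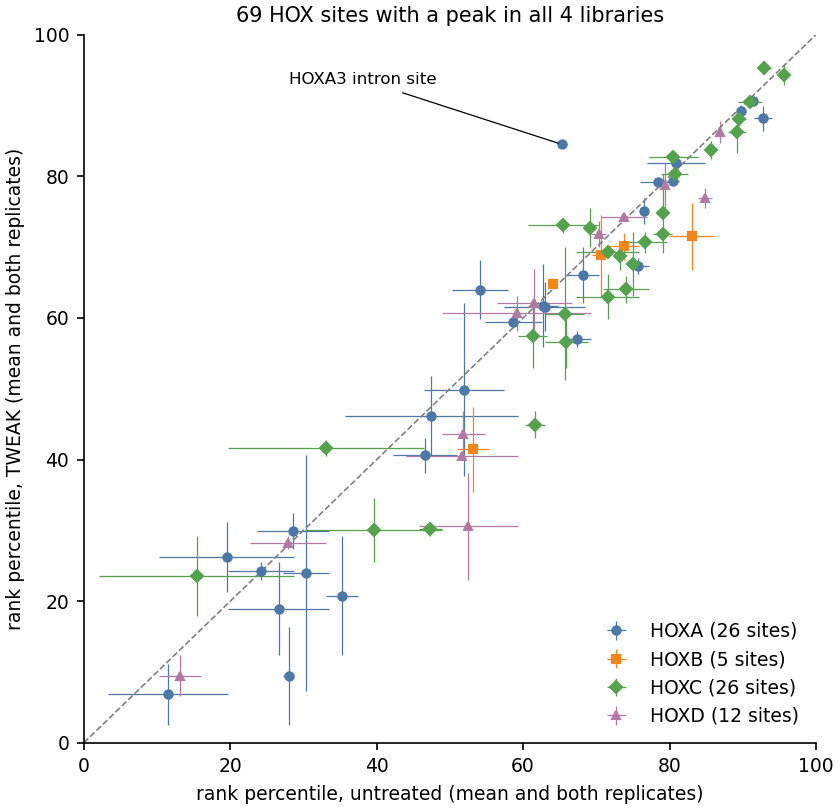
Rank percentile in the TWEAK libraries against that in the untreated libraries for the 69 HOX sites present in all 4, with bars spanning both replicates and a dashed line of equality. Most sites lie near the line, somewhat below it, and the HOXA3 intron site lies well above it.

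Genes of HOX partners and of chromatin regulators were counted in the same way, beside the 70.0% of all protein-coding genes. Of 9 HOX cofactor genes, 8 had a site in all 4 libraries at the canonical start, or 88.9%. MEIS1 ranked at 92.3 to 95.1, and MEIS3 was the exception, with peaks at 2.52 to 29.2 that did not merge into 1 site. Of 19 Polycomb and Trithorax genes, 18 had such a site, or 94.7%, among them EZH2, the methyltransferase of Polycomb repressive complex 2, at 88.9 to 92.1. WDR5 had a peak in every library but not at 1 shared site. Of 15 other homeobox genes, 8 had a site in all 4 libraries, or 53.3%, a share below that of all protein-coding genes. EVX2, which lies within the HOXD window next to HOXD13, and CDX2 had no peak.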

How the data were processed

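Per the labels and the study's methods, the authors used Trimmomatic to trim reads, Bowtie2 to align them to hg38, Picard to remove duplicates and MACS2 to call peaks. Versions, settings and any shift of reads for the transposase are not given in the sources used here. The authors deposited 1 peak list for each library, with blacklisted regions removed, in which all peaks are 501 bp wide. The deposited value of a peak was read as the −log10 p-value of the caller, since every value matched a Poisson tail of a whole pileup against 1 background for its list. The value depends on depth, so peaks were ranked within their list (ties averaged). Testing with DiffBind, as in the study, needs reads and was not run.

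Peaks overlapping by 1 bp or more were merged into sites with Python 3.11.15, pandas 2.3.3 and numpy 2.4.6, and start sites were those of GENCODE release 44. Scripts were tested on simulated lists. Groups were compared by exact permutation of the labels, and clusters by exact sign-flip permutation over the 4 libraries with Benjamini-Hochberg adjustment over the 6 pairs. All 38 genes were described. Sites were named by a fixed rule: the strongest of each cluster, those in both libraries of 1 treatment only (6 at most of a kind), and the 3 with the widest separation in each direction. HOX sites with a CTCF match and the values on the scale of pileup over background were added later. Replicates were described as biological in the methods, and p-values measure only the spread between these libraries. The members, lists and comparisons were chosen with earlier results of these data known. The sequences of the strongest HOXB and HOXC sites and the values of 1 cofactor gene are not reported here.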

Additional observations from a re-analysis of the deposited data

How the results depend on the processing

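All alternatives kept the sign of 5 of the 6 differences in peak density between clusters. HOXC minus HOXA turned to 0.336 peaks per 10 kb with peaks of a value of at least 5 and to 0.384 with peaks of at least 5 times the background. HOXA then had 33 and 29 sites against 75, and HOXC had 42 and 40 against 58. HOXB had 22 sites within 50 kb of a start. The number of HOX starts with a site in every library stayed between 16 and 19 when 1 library was left out. It ran from 14 to 21 under the other alternatives. The TWEAK minus untreated difference in peaks was 1.5 within 10 kb, 4.5 and 7 under the same thresholds, and ran from −15.5 to 12.5 when 1 library was left out, so it has no stable sign. The difference in mean percentile was 0.16 as log2 of pileup over background and −5.62 to −0.91 when 1 library was left out. Sites in both TWEAK libraries only numbered 12 to 21, and sites in both untreated libraries only 6 to 20, when 1 library was left out, since a site then needs fewer lists. With the scale of pileup over background, chosen after seeing the data, 22 sites were higher and 6 lower in both TWEAK libraries. The HOXA3 intron site, picked for its separation, differed by 18.5 to 19.8 points without any 1 library, which is a description and no test.

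No source used here says that same-numbered libraries share a day, so they share only a number. The correlation of their deviations was −0.00607 over all sites present in all 4 libraries and 0.0948 over the 69 HOX sites. With a replicate block the differences were −1.5 peaks (exact permutation p = 1) and −3.16 percentile points (exact permutation p = 1), and the smallest p it allows is 0.5. Peak lists hold no reads below the caller's threshold, so an absent peak is not an absence of accessibility. TWEAK replicate 2 had the lowest background pileup and the fewest peaks, and the part of depth in its missing peaks was not tested. Copy number was not measured.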
